A study of Mus musculus with 4 samples.

Results

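Monocytes leave the blood for inflamed tissue along gradients of CC chemokines, and 7 genes of that route were followed here by exact match of their symbols. They are the ligand genes Ccl2, Ccl7, Ccl8 and Ccl12, the receptor gene Ccr2, the growth factor gene Csf1 and its receptor gene Csf1r, 7 of 32285 features. Single-cell RNA was counted from mouse pancreatic ductal adenocarcinoma tissue with 1 library per group. The GPH library is grouped by its title, and its treatment label names gemcitabine (60 mg per kg, into the peritoneum) and is then cut short. The PH library came from animals given paricalcitol, which activates the receptor for vitamin D, together with hydroxychloroquine, a drug that makes lysosomes less acid. The G library came from animals given gemcitabine, a nucleoside analogue that blocks DNA synthesis, and the control library from animals given PBS. Each library pooled tumour pieces of 3 animals. Strain, sex, age and tumour model are not given in the labels used here. With no replicate libraries there is no test of any difference between treatments, and every 95% interval below covers counting error only.

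In the mouse, Ccl2, Ccl7 and Ccl12 encode ligands of the receptor Ccr2, which inflammatory monocytes use to leave the bone marrow and enter tissue. Ccl8 belongs to the same gene family, and its mouse product acts mainly on another receptor, Ccr8. Csf1 encodes a growth factor that macrophages need to survive and mature, and Csf1r encodes the kinase receptor that binds it. NF-kappaB is a known activator of Ccl2 transcription.

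The 4 ligand genes lie in a row on the plus strand of mouse chromosome 11 (GRCm38, GENCODE vM21). Ccl2 (ENSMUSG00000035385) spans chr11:82035571-82037453, and Ccl7 (ENSMUSG00000035373) spans chr11:82045712-82047525, with 8258 bases between them. Ccl12 (ENSMUSG00000035352) spans chr11:82101845-82103400, and Ccl8 (ENSMUSG00000009185) spans chr11:82115185-82116799, with 11784 bases between them. Each of the 4 has 3 exons and 1 coding transcript, and the longest run of identical bases between any of these transcripts was 23 bases, in Ccl2 and Ccl7. Ccr2 (ENSMUSG00000049103) spans chr9:124101950-124113557 and Csf1 (ENSMUSG00000014599) spans chr3:107741048-107760469 on the minus strand.

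RefSeq promoter sequences (GRCm38.p6) matched 4 of the 7 genes, Ccl8, Ccl12, Ccr2 and Csf1. Those of the neighbours Ccl8 and Ccl12 are shown because the levels of these genes parted in macrophages, and that of Csf1 because it was measured in vimentin-high cells beside NF-kappaB genes. Each run holds the 250 bases before the start, 5′ to 3′ on the strand of the gene, in lower case with motif matches in capitals. Ccl8 is from chr11:82114935-82115184 and Ccl12 from chr11:82101595-82101844, both on the plus strand, and Csf1 is from chr3:107760470-107760719 on the minus strand.
Ccl8: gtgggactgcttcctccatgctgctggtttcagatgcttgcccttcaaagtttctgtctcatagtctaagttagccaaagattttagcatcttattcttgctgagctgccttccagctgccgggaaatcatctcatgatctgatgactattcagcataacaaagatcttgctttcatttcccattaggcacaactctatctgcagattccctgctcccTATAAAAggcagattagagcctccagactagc
Ccl12: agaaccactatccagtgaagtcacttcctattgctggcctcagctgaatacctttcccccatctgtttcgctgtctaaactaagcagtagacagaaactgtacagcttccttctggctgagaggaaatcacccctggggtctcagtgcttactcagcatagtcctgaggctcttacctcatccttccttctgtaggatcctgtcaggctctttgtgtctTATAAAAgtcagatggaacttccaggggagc
Csf1: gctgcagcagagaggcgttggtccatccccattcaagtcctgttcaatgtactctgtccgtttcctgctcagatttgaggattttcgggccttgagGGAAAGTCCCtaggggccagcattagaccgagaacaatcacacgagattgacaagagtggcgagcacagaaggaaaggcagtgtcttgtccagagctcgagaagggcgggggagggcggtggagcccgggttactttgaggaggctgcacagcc
Both strands were searched for the TATA box TATAAAA, the AP-1 motif TGANTCA, the STAT motif TTCNNNGAA, an interferon response motif GAAANNGAA and the NF-kappaB consensus. The capitals mark TATAAAA in Ccl8 (32 to 26 bases before the start) and in Ccl12 (31 to 25 bases before it). In Csf1 they mark an NF-kappaB match on the opposite strand, 154 to 145 bases before the start. No match overlapped another. Among 32851 promoters of the same table, 4.98% held the TATA box, 5.00% the NF-kappaB consensus, 6.75% the AP-1 motif, 7.02% the STAT motif and 7.13% the interferon response motif. A match describes letters only, and no binding was measured.

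After filtering, 4411 cells of GPH, 13977 of PH, 12449 of G and 10074 of control passed, and their median depth was 20103 UMIs (unique molecule counts) in GPH, 7862 in PH, 4610 in G and 9635 in control. The libraries stood apart in ways that go with the groups. Barcodes above the mitochondrial limit were 41.0% of GPH against 12.7% to 15.6% of the others. Vimentin-high cells held 11.5 CPM (UMIs of a gene scaled to a common total per class) of 3 Y-linked genes in GPH, 0.476 in PH, 8.50 in G and 0.0763 in control. Nmt1, which encodes a protein myristoyltransferase, was at 100.0 CPM in those cells in GPH, 26.1 in PH, 26.3 in G and 113 in control. Pairs of libraries shared 10 to 43 kept barcodes. The part of these differences in the results was not tested, and treatment and library cannot be told apart.

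Cell classes were built without the 7 genes. Vimentin-high cells (1454 in GPH, 10650 in PH, 1920 in G and 7901 in control) carried 833 to 1222 CPM of Cdkn2a and at most 10.8 CPM of Xist. They held 5 of 12 ductal markers, 3 to 5 of 11 fibroblast markers and none of 11 macrophage markers at 50 CPM. The fibroblast markers summed to 1376 CPM in GPH, 474 in PH, 812 in G and 729 in control, and clusters 0, 3 and 4 of the class matched the fibroblast list best, so the class is called by its rule. The macrophage markers summed to 49.2 CPM in GPH, 37.4 in PH, 77.9 in G and 29.2 in control, with Adgre1 and Ms4a7 at 0 in GPH. The macrophage/monocyte-like class (48 cells in GPH, 351 in PH, 1668 in G and 246 in control) held 10 or 11 of 11 macrophage markers and 5 or 6 of 11 monocyte markers at 50 CPM. It included mixed sub-clusters that matched the ductal tumour or T cell list best (1 cell in GPH, 65 in PH, 90 in G and 25 in control). These held 2007 of the class's 8377 Ccl2 UMIs in PH and 3588 of its 17395 Ccl8 UMIs in G. Cdkn2a in the class was at 22.5 CPM in GPH, 101 in PH, 9.67 in G and 113 in control. Keratin-high cells numbered 2116 in GPH, 5 in PH, 1320 in G and 1 in control. Fibroblast-like cells numbered 34 in GPH, 43 in PH, 29 in G and 76 in control. In control the last held 501 CPM of Cdkn2a and fibroblast markers summing to 3810 CPM, against 17449 to 22054 CPM in the other libraries, so that the cluster went against its name there. Cdkn2a in fibroblast-like cells was also at 444 CPM in PH, with 44.3 CPM in GPH and 112 CPM in G.

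Vimentin-high cells held most of the Ccl2 and Csf1 UMIs in every library. Their share of Ccl2 UMIs was 92.5% of 28131 in GPH, 85.9% of 140164 in PH, 73.5% of 18630 in G and 82.4% of 45048 in control. Their share of Csf1 UMIs was 77.4% in GPH, 94.1% in PH, 65.7% in G and 89.5% in control. Ccl12 lay mostly in the macrophage/monocyte-like class, which held 98.0% of its UMIs in GPH, 89.4% in PH, 73.0% in G and 97.4% in control. That class also held 71.8% of Csf1r UMIs in GPH, 86.8% in PH, 72.1% in G and 78.0% in control. Ccr2 was more widely spread, with 39.0% in the class in GPH, 59.7% in PH, 33.8% in G and 24.0% in control. NK cell-like cells held 24.4% of Ccr2 UMIs in GPH, 8.86% in PH, 22.6% in G and 44.7% in control. In G an unnamed immune cluster led by Ccl17, Ear2 and Ccl22 held another 23.7% of Ccr2 and 24.1% of Csf1r UMIs. In PH a shallow unnamed cluster held 5.97% of Ccl2 UMIs. These shares follow cell numbers as well as RNA per cell.

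**Figure D1:**
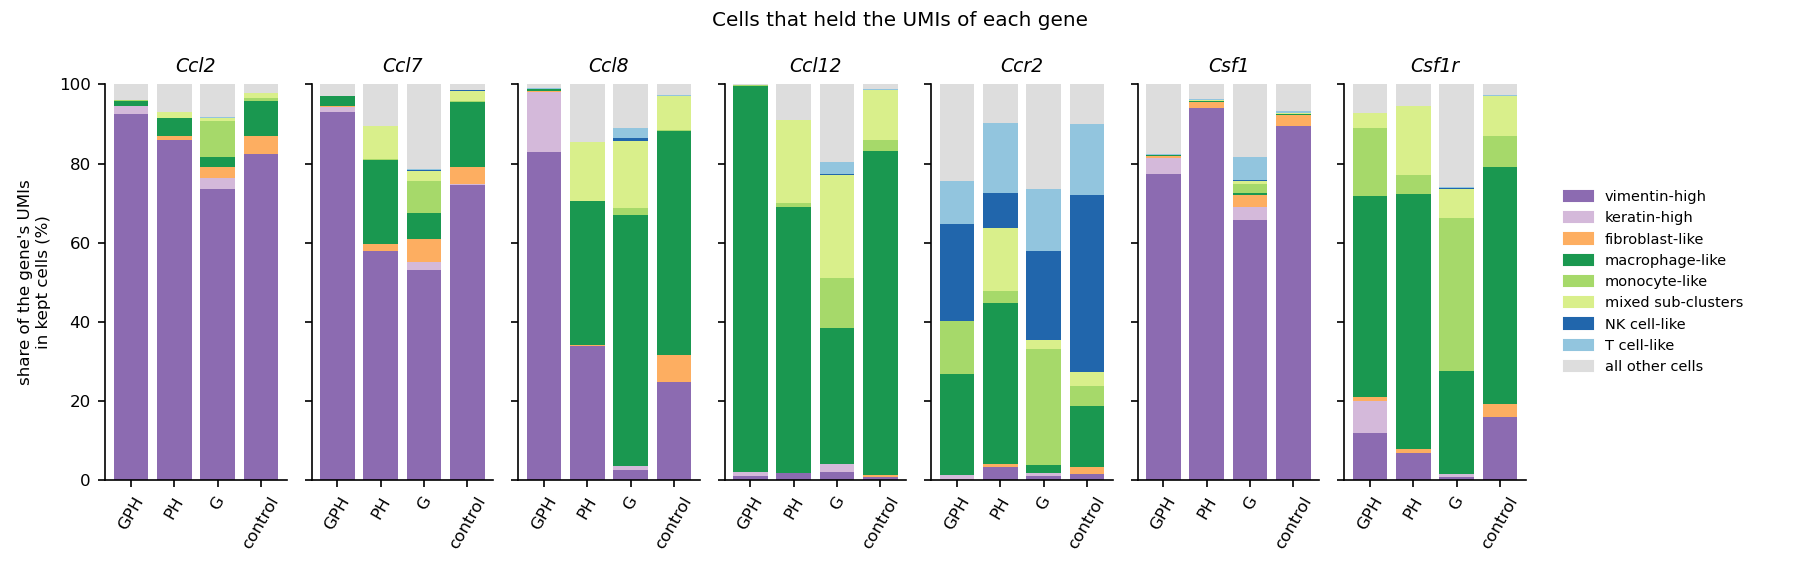
Share of each gene's UMIs (vertical axis, percent) held by each cell class in GPH, PH, G and control, 1 library per bar. Vimentin-high cells make up 73.5% to 92.5% of the Ccl2 bars, and macrophage/monocyte-like cells 73.0% to 98.0% of the Ccl12 bars.

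Per RNA, Ccl2 was higher in macrophage/monocyte-like than in vimentin-high cells except in G. The macrophage/monocyte-like level was 1166 CPM in GPH, 2680 in PH, 262 in G and 2285 in control, and the vimentin-high level was 935 CPM in GPH, 939 in PH, 497 in G and 315 in control. Keratin-high cells held 6.40 CPM in GPH and 12.4 CPM in G. T cell-like cells, which should lack these ligands, had no Ccl2 UMI in GPH, which allows the level of 3 UMIs, and 22.3 CPM in PH, 2.80 in G and 6.67 in control. Their Ccl8 level was 37.5 CPM in G and 3.81 CPM in control. Levels near these cannot be told from free RNA in the droplets.

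**Figure D2:**
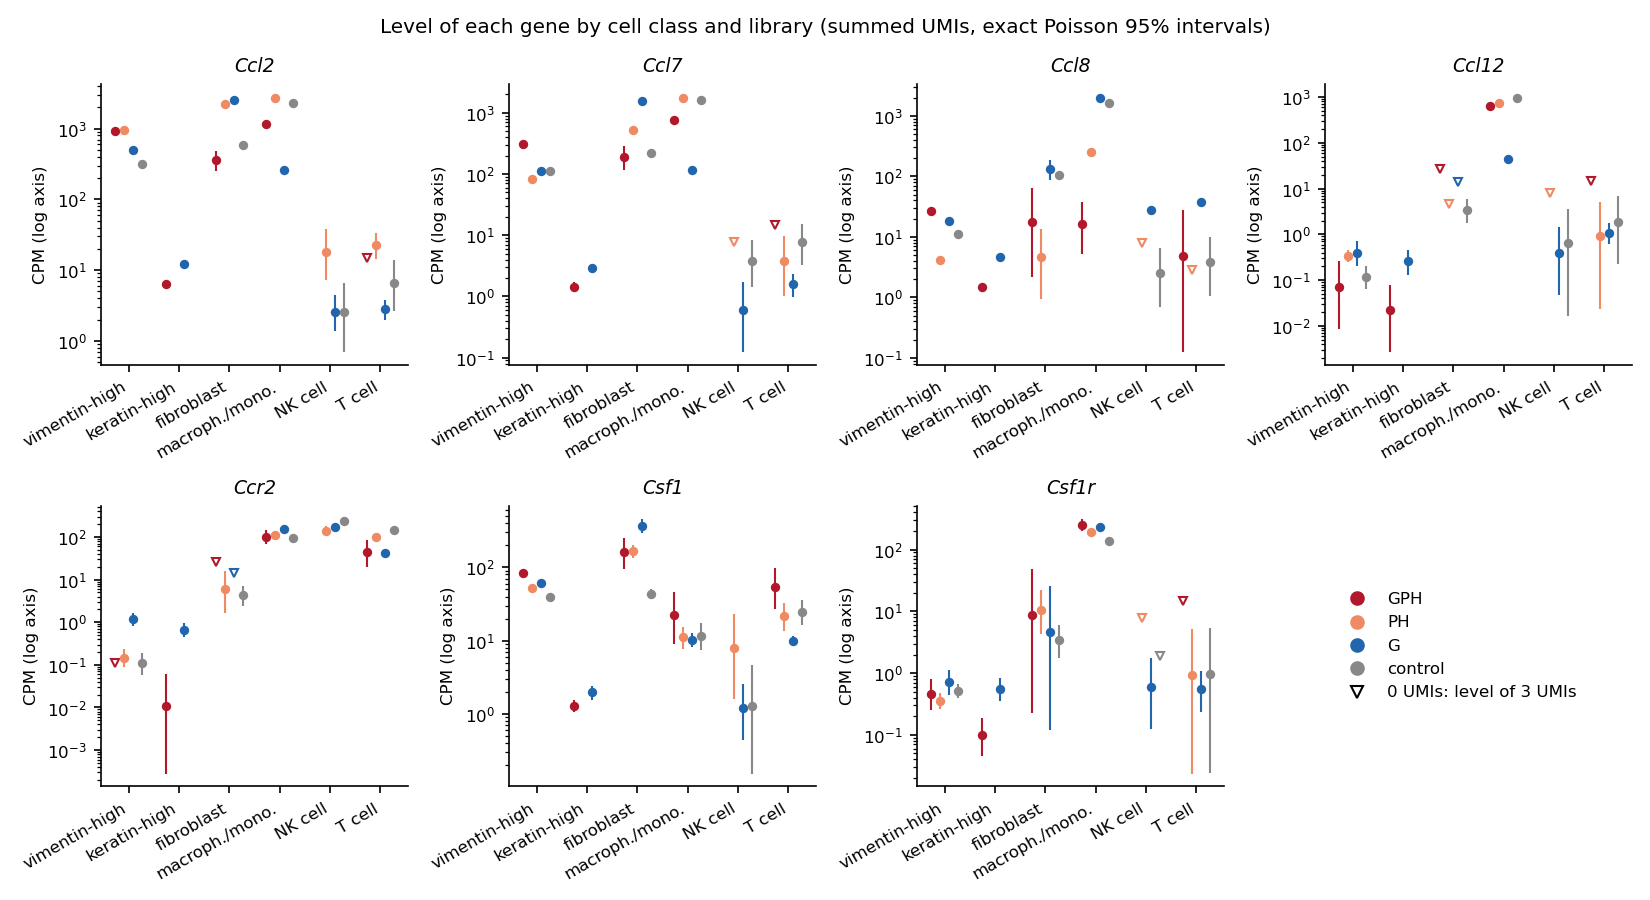
CPM (log axis) of the 7 genes in 6 cell classes, coloured by library, where a class has at least 20 cells, with exact Poisson 95% intervals and open triangles at the level of 3 UMIs where none was found. Ccl2 is high in vimentin-high, fibroblast-like and macrophage/monocyte-like cells, and Ccr2 is also found in NK and T cell-like cells.

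In vimentin-high cells Ccl2 was higher in GPH and PH than in G, and lowest in control. It was at 935 CPM in GPH (26012 UMIs), 939 in PH (120454 UMIs), 497 in G (13685 UMIs) and 315 in control (37114 UMIs). GPH and PH differed by less than the counting error, at a ratio of 0.996 (0.983 to 1.01). The ratio to control was 2.97 in GPH (2.93 to 3.02), 2.99 in PH (2.95 to 3.02) and 1.58 in G (1.55 to 1.61). A Ccl2 UMI was found in 63.9% of these cells in GPH, 58.7% in PH, 49.5% in G and 42.6% in control. With each cell thinned to 2000 UMIs the share was 39.9% in GPH, 40.2% in PH, 28.2% in G and 19.6% in control, after 22, 177, 36 and 113 shallower cells were left out. Thinned T cell-like cells gave 3.81% in PH, 0.726% in G and 1.70% in control. Median depths before thinning were 9383.5 UMIs in PH and 11361 in control for vimentin-high cells, and 2190 and 2361 for T cell-like cells. The 10% of vimentin-high cells richest in Ccl2 held 66.0% of its UMIs in GPH, 64.0% in PH, 75.2% in G and 79.6% in control.

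The PH difference was found in every large cluster of vimentin-high cells, whereas the GPH difference was smaller within clusters. In the 6 clusters with at least 100 cells in both PH and control, the Ccl2 ratio was 1.55 to 7.84. Ccl2 was highest in cluster 4, led by the hyaluronan synthase gene Has2, the growth factor gene Ptn and the activin subunit gene Inhba, at 1135 CPM in GPH, 2778 in PH, 1083 in G and 737 in control. Cluster 4 made up 65.2% of vimentin-high cells in GPH, 10.2% in PH, 28.9% in G and 5.62% in control. These sizes were not compared as a result, since clusters come from the same RNA. Only clusters 3 and 4 had 100 cells in both GPH and control, and their Ccl2 ratios were 1.17 (1.12 to 1.23) and 1.54 (1.49 to 1.59). With clusters at equal weight the GPH log2 ratio to control was 0.67, against 1.57 over all cells. The equal weight took in clusters with fewer than 100 cells of GPH, down to 29 in cluster 6. It left out cluster 5, with 19 cells of GPH. Fibroblast markers were highest in GPH too, at the 1376 CPM given above, and their part in the GPH levels of Ccl2 and Ccl7 was not tested. Against PH, the GPH level was 0.454 times as high in cluster 3 and 0.409 times in cluster 4. In G the ratio to control was 1.52 in cluster 3 and 1.47 in cluster 4, and it was 0.990 in the dividing cells of cluster 9. Over the class the G log2 ratio was 0.66, and 0.43 with each cell typed by its own markers and 0.44 with clusters at equal weight, both under 1.5-fold.

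**Figure D3:**
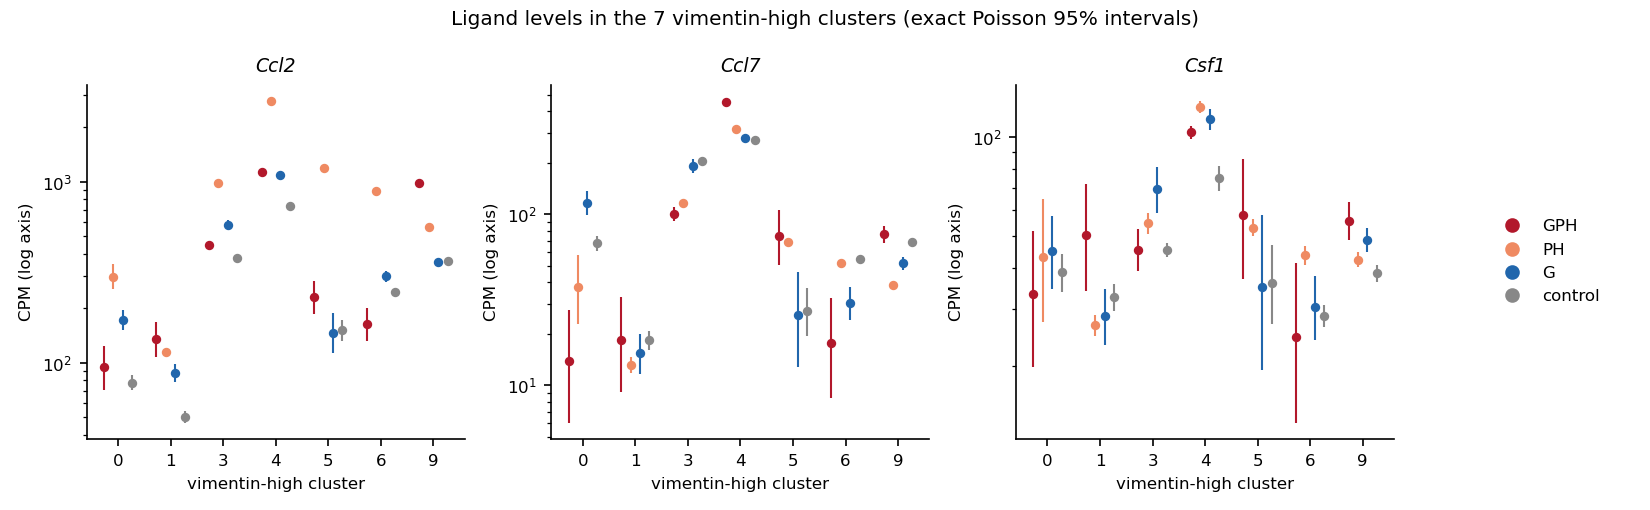
CPM (log axis) of Ccl2, Ccl7 and Csf1 in the 7 vimentin-high clusters (horizontal axis), coloured by library, with exact Poisson 95% intervals. PH lies above control for Ccl2 in all 7 clusters, and Ccl7 peaks in cluster 4 in each library.

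Ccl7, the neighbour of Ccl2, did not share its order. In vimentin-high cells it was at 314 CPM in GPH (8719 UMIs), 82.4 in PH (10572 UMIs), 114 in G (3132 UMIs) and 113 in control (13373 UMIs). GPH was the high library and PH the low one, with a PH ratio to control of 0.727 (0.709 to 0.746) and a G ratio of 1.00 (0.965 to 1.04). The GPH ratio to control was 2.77 (2.69 to 2.84), and cluster 4 held 91.1% of the class's Ccl7 UMIs in GPH, against 13.9% in control. Within cluster 4 Ccl7 was at 452 CPM in GPH and 273 CPM in control, a ratio of 1.66 (1.58 to 1.74). Within cluster 3 it was at 100.5 CPM in GPH and 205 CPM in control, a ratio of 0.490 (0.443 to 0.542). With clusters at equal weight the GPH log2 ratio was -0.02, against 1.47 over all cells, so the direction depends on the weighting.

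Ccl8 was low in vimentin-high cells, at 26.3 CPM in GPH, 4.07 in PH, 18.5 in G and 11.1 in control. The G level lies under the T cell-like level of that library. The GPH ratio to control was 2.36 (2.15 to 2.58) over the class and 1.03 (0.880 to 1.199) within cluster 4. Ccl12 was at no more than 0.400 CPM, Ccr2 at no more than 1.199 CPM and Csf1r at no more than 0.726 CPM in vimentin-high cells of any library.

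Over the class of vimentin-high cells, Csf1 was higher in each treated library than in control. In vimentin-high cells it was at 83.0 CPM in GPH (2309 UMIs), 52.2 in PH (6695 UMIs), 60.8 in G (1675 UMIs) and 39.9 in control (4712 UMIs). The 4 intervals did not overlap. The ratio to control was 2.08 in GPH (1.98 to 2.19), 1.31 in PH (1.26 to 1.36) and 1.52 in G (1.44 to 1.61). Cluster 4 was the highest cluster here too, with 103 CPM in GPH, 123 in PH, 113 in G and 74.7 in control. In cluster 3 GPH had 45.4 CPM and control 45.2 CPM, a ratio of 1.00 (0.857 to 1.17). Across the 6 clusters with at least 100 cells in both libraries, the ratio to control was 0.820 to 1.65 in PH and 0.874 to 1.53 in G. In both PH and G it was above 1 in 5 of the 6 clusters and at least 1.5-fold in 2. Neutrophil-like cells had the highest Csf1 level among immune classes, at 406 CPM in GPH, 109 in PH, 277 in G and 365 in control, from 16, 4, 294 and 15 UMIs.

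A ratio of 1.5-fold was used to count genes. A gene counted as measured with 20 CPM in either library and 20 UMIs in both together, and Ccl8, which passed in GPH comparisons only through its GPH level, was left out of the counts. In GPH against control Ccl2, Ccl7 and Csf1 were higher in vimentin-high cells, beside 22.6% higher and 9.14% lower of 4998 measured genes. With clusters at equal weight, Ccl7 (log2 -0.02) and Csf1 (log2 0.27) were no longer past 1.5-fold, and Ccl8 was at 0.02. The median log2 ratio of all measured genes was itself 0.17 in GPH over control, 0.21 over G and 0.12 over PH. In PH against control 1 of 3 measured was higher (Ccl2) and none lower, beside 7.47% and 8.53% of all genes. In G against control 2 of 3 were higher (Ccl2 and Csf1) and none lower, beside 5.42% and 6.23%. The Csf1 log2 ratio of 0.61 stayed past 1.5-fold under 4 of 9 alternatives, the lowest being 0.33. In GPH against G, Ccl2 (1.88-fold) and Ccl7 (2.76-fold) were higher and Csf1 was not past 1.5-fold, beside 21.0% higher and 7.34% lower of all genes. Within cluster 3, with Ccl8 counted, 3 of 4 measured genes of the route were at least 1.5-fold lower in GPH than in G, and none was higher. Within cluster 4, 1 of 4 was higher and none lower. The median log2 ratios of the 4 genes were -0.63 in cluster 3 and 0.02 in cluster 4. In GPH against PH, Ccl7 (3.804-fold) and Csf1 (1.59-fold) were higher and Ccl2 was not past 1.5-fold, beside 19.6% higher and 6.74% lower. Within cluster 3, none of 3 measured genes of the route was at least 1.5-fold higher in GPH than in PH, and 1 was lower. Within cluster 4, with Ccl8 counted, 1 of 4 was higher and 1 lower, and Csf1 was lower in GPH than in PH, as given above. The part of cluster sizes in these class ratios was not tested.

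Genes of NF-kappaB and its inducers were counted beside Ccl2 in vimentin-high cells. Of 15 listed, 9 of 11 measured were at least 1.5-fold higher in GPH than in control, 5 of 9 in PH and 3 of 9 in G, and none was lower. Of all measured genes 22.6% were higher in GPH, 7.47% in PH and 5.42% in G. Within cluster 3, 1 of 9 was higher and 1 lower in GPH than in control, and within cluster 4, 3 of 11 were higher and none lower, with median log2 ratios of 0.19 and 0.34. The median log2 ratio of the measured members was 0.78 in GPH, 0.65 in PH and -0.03 in G, against 0.17, 0.01 and -0.03 for all measured genes. Nfkb1, a subunit gene, was at 126 CPM in GPH, 87.95 in PH, 87.8 in G and 40.6 in control. Nfkbiz, which encodes an atypical member of the inhibitor family, was at 240.1 CPM in GPH, 243 in PH, 117 in G and 119.6 in control. Tnfaip3, a feedback inhibitor of the pathway, was 5.55-fold higher in PH (5.23 to 5.88), at 62.1 CPM in PH against 11.2 CPM in control. That control level lay under the limit for a measured gene, so Tnfaip3 counted in PH, G and GPH only through the treated library. In GPH the same held for Il6 and Myd88. A gene that counts in this way can hardly be found lower, and these genes are among the higher ones counted over the class. Kitl, which encodes stem cell factor, was at 83.5 CPM in GPH, 72.2 in PH, 62.2 in G and 34.85 in control.

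Small stromal and mast cell classes held high ligand levels, from too few cells for a ratio. Fibroblast-like cells had 355 CPM of Ccl2 in GPH (40 UMIs), 2236 in PH (1461 UMIs), 2544 in G (546 UMIs) and 579 in control (2035 UMIs). Their Csf1 level was 159.6 CPM in GPH, 165 in PH, 368 in G and 43.3 in control. The part of the cells with Cdkn2a RNA, given above, in the PH and control levels was not tested. Endothelial-like cells had 2042 CPM of Ccl2 in GPH (5 cells), 269 in PH (35 cells), 503 in G (53 cells) and 1551 in control (19 cells). In G, 40 mast cell-like cells held 5806 CPM of Ccl7, which was 18.3% of the Ccl7 UMIs of that library, and 3266 CPM of Ccl2. Over all libraries Cdkn2a was at 396 CPM in the endothelial-like cluster and 368 CPM in the mast cell-like cluster. In the macrophage/monocyte-like cluster it was at 45.4 CPM. The part of cells or RNA with Cdkn2a in the endothelial-like and mast cell-like levels was not tested.

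In the macrophage/monocyte-like class Ccl8 was the only 1 of 6 measured genes of the route past 1.5-fold between PH and control. Ccl8 was at 254 CPM in PH (795 UMIs) and 1633 CPM in control (3486 UMIs), 6.42-fold lower in PH (5.94 to 6.94). Ccl12, which lies next to Ccl8, was at 754 CPM in PH and 947 CPM in control, a ratio of 0.795 (0.749 to 0.845). Ccl2 was at 2680 CPM in PH and 2285 CPM in control, a ratio of 1.17 (1.13 to 1.22). Ccl7 was at 1744 CPM in PH and 1630.5 CPM in control, a ratio of 1.07 (1.03 to 1.12). Of 6 measured genes of the route none was higher by 1.5-fold and 1 was lower, beside 14.0% and 12.2% of 5007 genes. A count of 1 in 6 cannot be told from that share. Ccl8 UMIs lay in few cells, 57 of 351 in PH and 56 of 246 in control. The richest 10% of cells held 96.9% of them in PH and 96.6% in control, a spread between cells that the Poisson interval leaves out. As a mean over cells, the log2 ratio was -1.98, against -2.68 from summed UMIs.

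In G the other 3 ligand genes of the row were the low ones. Ccl2 was at 262 CPM in G and 2285 CPM in control, 8.71-fold lower in G (8.29 to 9.16). Ccl7 was at 118 CPM in G and 1630.5 CPM in control, 13.8-fold lower, and Ccl12 was at 45.4 CPM in G and 947 CPM in control, 20.9-fold lower. Ccl8 was at 2003 CPM in G and 1633 CPM in control, a ratio of 1.23 (1.18 to 1.27). Its log2 ratio of 0.29 lay between -0.31 and 1.77 over 8 alternatives and was negative only at clustering resolution 0.5, so no direction is drawn for it. Of 6 measured genes 2 were higher (Ccr2 and Csf1r) and 3 lower, beside 18.3% and 21.2% of 5047 genes. Most cells of the class in G fell in a monocyte-like sub-cluster, sub-cluster 1, with 1335 cells of G. It was named by Ly6c2, Plac8, Chil3, Ms4a4c and Hp against the other cells of the class. It also held 859 CPM of the macrophage marker C1qa, against 1545 CPM in macrophage-like sub-cluster 0 and 0 in the smaller monocyte-like sub-cluster.

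Macrophage-like sub-clusters alone held 42 cells of GPH, 262 of PH, 238 of G and 165 of control. There Ccl2 was at 254 CPM in G and 2659 CPM in control, 10.5-fold lower in G (9.51 to 11.5). Ccl7 was at 214 CPM in G and 1992 CPM in control, 9.32-fold lower, and Ccl12 was at 100.4 CPM in G and 1149 CPM in control, 11.4-fold lower. Ccl8 was at 7259 CPM in G and 2037 CPM in control, 3.56-fold higher (3.43 to 3.71). Most of these G UMIs lay in sub-cluster 4, described below, where control had few cells. In control 46 of 165 cells had a Ccl8 UMI, and the richest 10% of cells held 94.1% of them, a spread the interval leaves out. This ratio was not run under the alternatives. Of 6 measured genes 2 were higher in G (Ccl8 and Csf1r) and 4 lower (Ccl2, Ccl7, Ccl12 and Ccr2), beside 22.1% and 23.8% of 5068 genes. In PH against control none was higher and Ccl8 was lower (7.51-fold), beside 14.0% and 14.6% of 4866 genes.

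The libraries drew their macrophage-like cells from different sub-clusters. Sub-cluster 0, with the macrophage genes Mrc1, Ms4a7 and Trem2 and dividing-cell genes such as Mki67 and Top2a, held 40 cells of GPH, 185 of PH, 22 of G and 161 of control. Its Ccl2 level was 1680 CPM in GPH, 3753 in PH, 617 in G and 2726 in control, and its Ccl12 level was 930.0 CPM in GPH, 1162 in PH, 58.8 in G and 1165 in control. For Ccl12, PH and control differed there by less than the counting error, at a ratio of 0.997 (0.932 to 1.07). Ccl8 was 9.75-fold lower there in PH, at 213 CPM in PH and 2073 CPM in control. Sub-cluster 4, led by Apoe and complement C1q genes with Ccl8 among its leading genes, held 2 cells of GPH, 15 of PH, 189 of G and 4 of control. Its Ccl8 level was 9628 CPM in G (13159 UMIs), 1660 in PH (112 UMIs) and 807 in control (34 UMIs). Sub-cluster 6, with the resident macrophage genes Timd4 and Cd5l, held 62 cells of PH and 27 of G. Its Ccl12 level was 44.5 CPM in PH and 53.1 CPM in G.

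**Figure D4:**
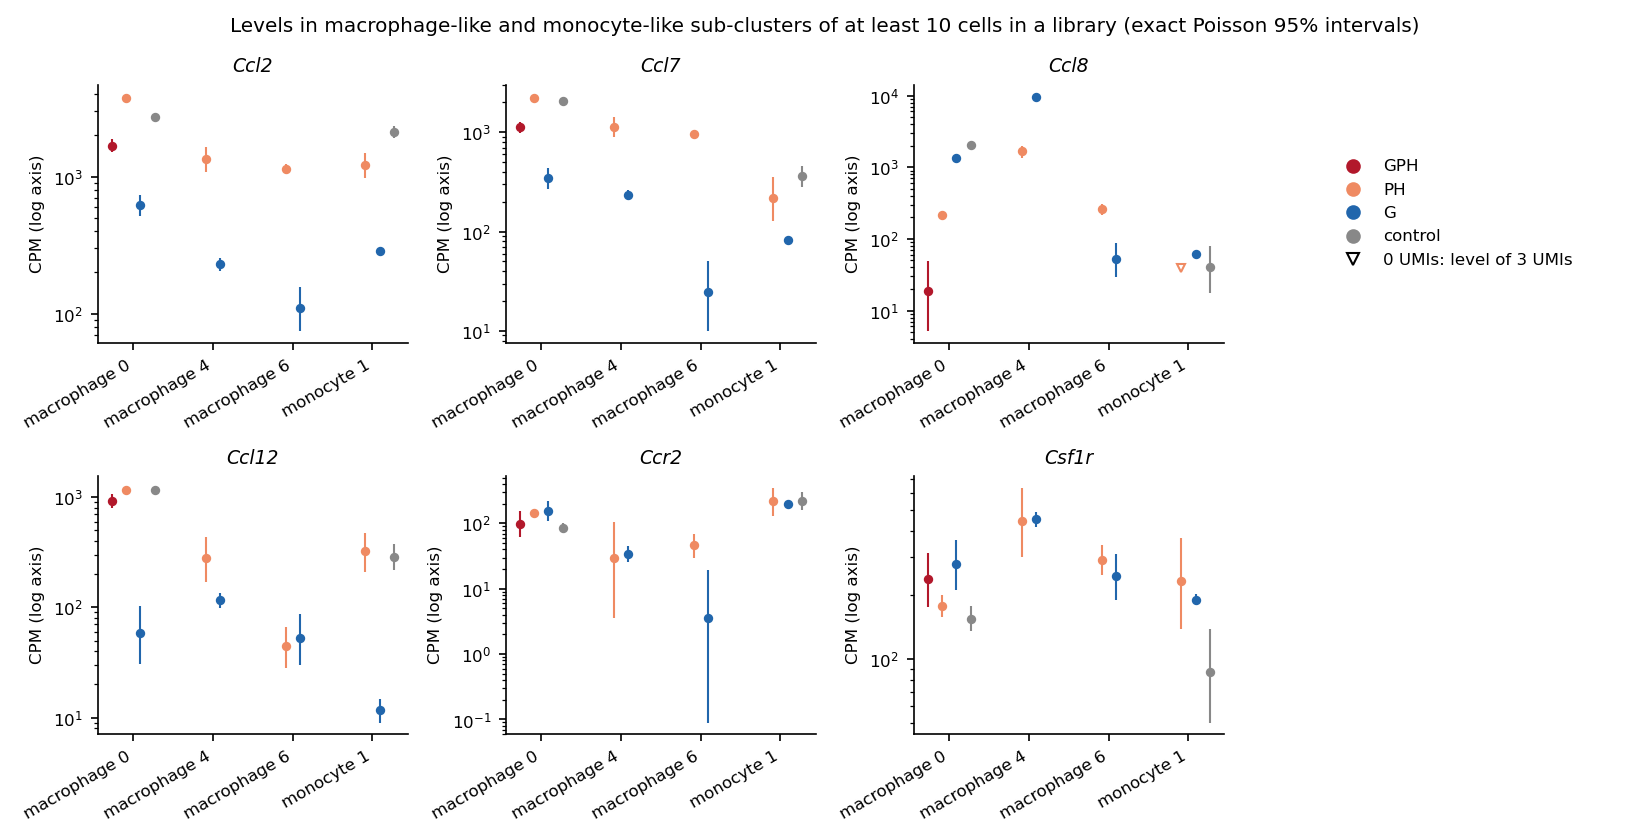
CPM (log axis) of 6 genes in 3 macrophage-like sub-clusters and the larger monocyte-like one, coloured by library, where a library has at least 10 cells, with exact Poisson 95% intervals. In sub-cluster 0 the G values of Ccl2, Ccl7 and Ccl12 lie below the other libraries, and Ccl8 of G reaches 9628 CPM in sub-cluster 4.

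GPH held only 48 macrophage/monocyte-like cells, and no ratio was taken. Their level was 1166 CPM for Ccl2 (363 UMIs), 765 CPM for Ccl7 (238 UMIs), 633 CPM for Ccl12 (197 UMIs) and 16.1 CPM for Ccl8 (5 UMIs). The richest 10% of these cells held 89.5% of the Ccl2 UMIs. Macrophage markers summed to 5578 CPM in GPH, 10638 in PH, 14534 in G and 9241 in control, and the median depth of the GPH cells was 2948 UMIs. The part of this in the ligand levels was not tested.

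Other chemokine and NF-kappaB genes were counted in the macrophage/monocyte-like class. In PH, 10 of 14 measured NF-kappaB genes were at least 1.5-fold higher and 1 was lower, and of 6 measured myeloid chemokine genes 3 were higher and 1 lower, beside 14.0% higher and 12.2% lower of all genes. Ccl4, an attractant for several leukocytes, was at 1939 CPM in PH and 612 CPM in control. In G, 1 of the 6 chemokine genes was higher and 4 were lower, and of 12 measured NF-kappaB genes 5 were higher and 3 lower with a median log2 ratio of 0.34, beside 18.3% higher and 21.2% lower of all genes. Some of the 14 NF-kappaB genes in PH counted as measured only through their PH level, since 12 were measured in G. Ccl6 was at 969 CPM in G and 2402 CPM in control, and Ccl5, a T cell attractant, was at 1145 CPM in G and 339 CPM in control. Csf2rb and Csf2rb2, beta chain genes of the GM-CSF receptor family, were 3.52-fold and 3.14-fold higher in G. T cell markers in the class summed to 188 CPM in PH, 186 in G and 59.5 in control, with all 9 at 0 in GPH and none at 50 CPM, and their part was not tested.

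Ccr2 RNA was found in several immune classes. In the macrophage/monocyte-like class it was at 103 CPM in GPH (32 UMIs), 114 in PH (357 UMIs), 151 in G (1314 UMIs) and 96.05 in control (205 UMIs). G was the highest, with a ratio to control of 1.58 (1.36 to 1.83), and the intervals of GPH, PH and control overlapped. The order differed by kind of cell. Monocyte-like cells had 188 CPM in PH (18 UMIs), 197 in G (1143 UMIs) and 200.4 in control (44 UMIs). Macrophage-like cells had 43.2 CPM in G and 88.4 CPM in control, 2.05-fold lower in G. Pooled over libraries, Ccr2 was at 38.3 CPM in sub-cluster 4, where most of these G cells lay. It was at 117 CPM in sub-cluster 0, where most of the control cells lay, and the part of this was not tested. In sub-cluster 0 PH was 1.70-fold above control (1.36 to 2.14), at 145 CPM in PH and 85.4 CPM in control. NK cell-like cells had 139 CPM in PH, 175 in G and 243 in control, and T cell-like cells 98.7 CPM in PH, 41.2 in G and 146 in control. At clustering resolution 2.0, where the class was 3.30% of G in place of 13.4%, the log2 ratio of G to control was -0.73 in place of 0.66.

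Csf1r stood at 254 CPM in the macrophage/monocyte-like class in GPH (79 UMIs), 192 in PH (600 UMIs), 237 in G (2056 UMIs) and 139.6 in control (298 UMIs). The ratio to control was 1.38 in PH (1.19 to 1.59) and 1.70 in G (1.50 to 1.92). In macrophage-like cells it was at 401 CPM in G and 154 CPM in control, 2.59-fold higher in G (2.23 to 3.02). Sub-cluster 4 held 189 of these cells in G and 4 in control, and sub-cluster 0 held 22 in G and 161 in control. Pooled over libraries, Csf1r was at 442 CPM in sub-cluster 4 and 178 CPM in sub-cluster 0. The part of this in the ratio was not tested. Thinned to 2000 UMIs, 36.4% of macrophage/monocyte-like cells of GPH had a Csf1r UMI, 28.9% of PH, 30.1% of G and 25.0% of control. T cell-like cells gave 0.121% in G at that depth.

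Ccl2 and Ccl7 were often found in the same cells. Among thinned macrophage/monocyte-like cells of PH, 164 of 241 with Ccl2 had Ccl7, against 21 of 95 without Ccl2. In G these were 85 of 343 and 62 of 1143, and in control 117 of 165 and 12 of 55. Cells of 1 library are not replicates, and these counts are a description.

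Over 37 sums of a class in a library (16 classes or unnamed clusters of at least 50 cells), Pearson's r of log2(CPM + 1) was 0.89 between Ccl2 and Ccl7. Outside the 7 genes, Ccl2 was closest to Lgmn (0.84), Ccl7 to Ecm1 (0.83) and Ccl8 to C1qb and Lyz2 (0.92 each). Ccl12 was closest to Folr2 (0.94), Csf1 to Igf1r (0.83) and Csf1r to Sirpa (0.96). The sums share libraries, depth and cell types, so these values are descriptions with no test.

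Set beside the ligand levels, the shares of mononuclear phagocytes had another order than Ccl2 in vimentin-high cells. The unnamed cluster led by Ccl17, Ear2 and Ccl22 is outside these shares and held 7 cells of GPH, 23 of PH, 914 of G (7.34% of kept cells) and 24 of control. It matched the macrophage list best, with 6 markers. Its 10 leading genes held Cd209a and Ccr7 of the dendritic list and no macrophage marker, so it took no name. Macrophage/monocyte-like cells were 1.09% of kept cells in GPH (0.803 to 1.44), 2.51% in PH (2.26 to 2.78), 13.4% in G (12.8 to 14.0) and 2.44% in control (2.15 to 2.76). Monocyte-like cells were 0.113% in GPH, 0.172% in PH, 10.8% in G and 0.556% in control. The larger monocyte-like sub-cluster, mostly of 1 library, may be that library and not a type. It also held 859 CPM of the macrophage marker C1qa. Macrophage-like cells were 0.952% in GPH (0.687 to 1.28), 1.87% in PH (1.66 to 2.11), 1.91% in G (1.68 to 2.17) and 1.64% in control (1.40 to 1.91), where PH, G and control overlapped. Immune cells as a whole were 4.53% of kept cells in GPH, 7.69% in PH, 71.2% in G and 13.01% in control. Of immune cells alone, the macrophage/monocyte-like class was 24.0% in GPH, 32.7% in PH, 18.8% in G and 18.8% in control. With 4 libraries no correlation between shares and levels was computed.

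**Figure D5:**
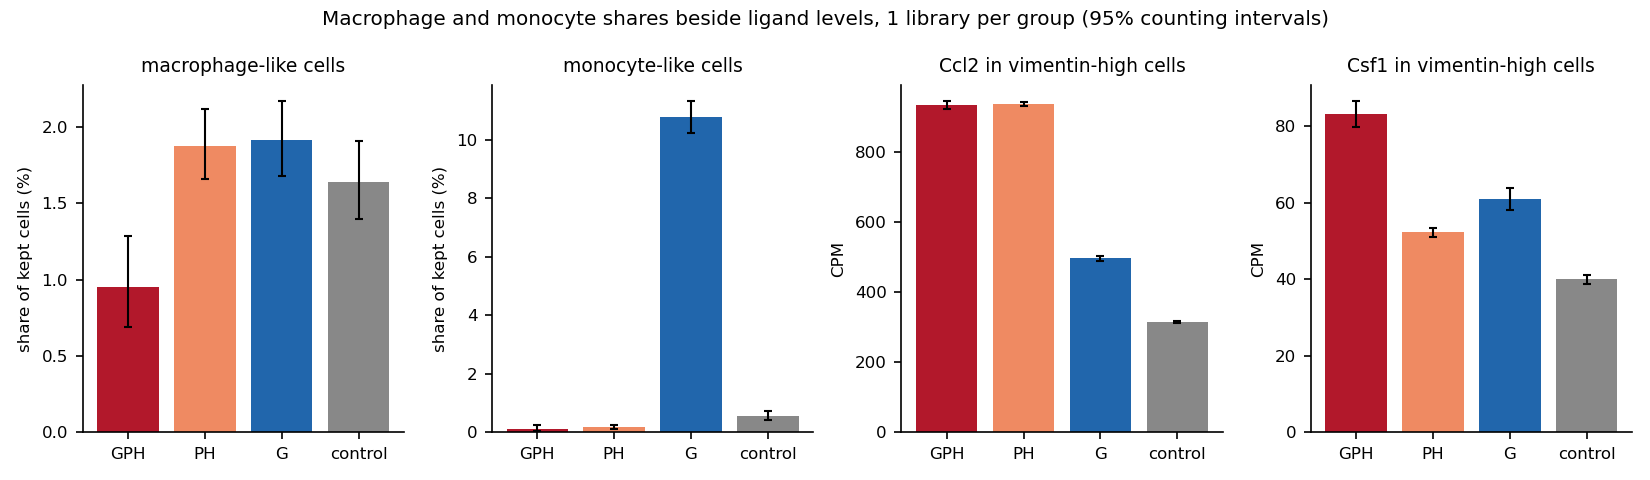
Shares of macrophage-like and monocyte-like cells (percent of kept cells, exact Clopper-Pearson 95% intervals) beside Ccl2 and Csf1 levels in vimentin-high cells (CPM, exact Poisson 95% intervals), 1 bar per library. Monocyte-like cells are 10.8% of G and at most 0.556% of the others, whereas Ccl2 is highest in GPH and PH.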

How the data were processed

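Each deposited matrix gives, for every barcode, unnormalized UMI counts of genes, and the authors' software was Cell Ranger 7.0.1 per the file headers, or Cell Ranger 6.1 with mm10 per the submitters' processing notes. How barcodes were called is not given in the sources used here. Cells with at least 500 UMIs, at least 300 genes and at most 20% mitochondrial UMIs were kept. Scrublet's automatic threshold marked 7 barcodes in GPH, 1 in PH and none in G or control, so doublets were removed by score rank at 0.8% per 1000 barcodes (168, 2056, 1573 and 977 in GPH, PH, G and control). The libraries were clustered together (2000 variable genes, 30 components, 15 neighbours, Leiden resolution 1.0; sub-clusters 0.3) with scanpy 1.11.5, igraph 0.11.9, scikit-learn 1.9.0, anndata 0.12.19, numpy 2.4.6, scipy 1.17.1, pandas 2.3.3, matplotlib 3.10.9 and Python 3.11.15.

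The 7 genes and 49 list genes were left out of clustering. An immune cluster (Ptprc at 50 CPM or more) took a name with 3 markers at 50 CPM and 2-fold over other cells. Sub-clusters needed 1.5-fold over the other cells of the macrophage/monocyte-like class only. Clusters outside the immune ones with Xist under 50 CPM were called keratin-high from 1000 CPM of Krt19 and otherwise vimentin-high from 2000 CPM of Vim. These limits, the members, markers and lists were chosen with earlier results of these data known.

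UMIs were summed per class and library and scaled to CPM. Levels carry exact Poisson intervals, ratios exact conditional binomial intervals and shares exact Clopper-Pearson intervals, all 95%. A count of 0 was drawn at 3 UMIs. Ratios needed 100 cells in both libraries. List genes were named at 50 CPM in either library and 1.5-fold, and the genes most like each member were the 5 of highest correlation. The gene most like Ccr2 is not reported here.

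Alternatives tried were other clustering resolutions, a mitochondrial limit of 10%, no doublet removal, cells typed by their own markers, the 7 genes kept in clustering, other scalings and weightings, and subtraction of the T cell-like level.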

Additional observations from a re-analysis of the deposited data

Results flagged for a closer look

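Ccl2 went opposite ways in vimentin-high cells and phagocytes of the G library against control. In G over control its log2 ratio was 0.66 in vimentin-high cells and -3.12 in macrophage/monocyte-like cells. The first was past 1.5-fold under 7 of 9 alternatives, the lowest being 0.43. In the second, monocyte-like cells were 1340 of 1668 in G and 56 of 246 in control. In macrophage-like cells alone Ccl2 was also lower in G, as given above. The difference between the classes was not tested, since each group is 1 library.

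Barcodes above the mitochondrial limit, which no comparison used, also carried ligand RNA above the control level. Ccl2 was at 133.5 CPM there in PH against 51.0 CPM in control, and Ccl8 was at 91.5 CPM in G against 9.74 CPM in control. T cell-like cells showed the same libraries high, with 22.3 CPM of Ccl2 in PH against 6.67 CPM in control, and 37.5 CPM of Ccl8 in G against 3.81 CPM in control.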

How the results depend on the processing

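No paired analysis was possible because each group is 1 library, and no library could be left out. The Ccl2 log2 ratios to control in vimentin-high cells kept their sign under every alternative that gave a value. GPH (1.57) gave 1.48 at resolution 2.0, 1.60 with a 10% mitochondrial limit, 1.62 without doublet removal, 1.45 with cells typed by their own markers, 1.54 without mitochondrial and ribosomal protein UMIs, 1.81 as a mean over cells and 0.67 with clusters at equal weight. PH (1.58) gave 1.63, 1.64, 1.60, 1.65, 1.78 and 1.76 under the same alternatives from the 10% limit on. G (0.66) gave 0.62 without doublet removal, 0.43 with own markers, 0.73 without those UMIs, 1.01 as a mean over cells and 0.44 at equal weight. Ccl8 of PH in macrophage/monocyte-like cells (-2.68) gave -2.91 at resolution 2.0, -2.57 without doublet removal and -1.98 as a mean over cells. The macrophage/monocyte-like share of G (13.4%) was 20.7% at resolution 0.5, 3.30% at resolution 2.0, 15.0% with the 10% limit, 15.3% with own markers and 18.8% of immune cells. Among log2 ratios past 1.5-fold the direction turned for Ccl7 of GPH in vimentin-high cells (-0.0186 at equal weight) and for Ccr2 of G in macrophage/monocyte-like cells (-0.73 at resolution 2.0). Among smaller ones it turned for Ccl8 of G (0.29, and -0.31 at resolution 0.5) and, as a mean over cells, for Ccl2 of PH (0.23, and -0.05) and Ccl7 of PH (0.10, and -0.10), all in macrophage/monocyte-like cells. Ccl7 of G in vimentin-high cells (0.01) kept its sign under 3 of 9 alternatives. The cause was not tested. Equal weight gave no value for the macrophage/monocyte-like class, which is 1 cluster. The 48 GPH phagocytes limit what depth can show there.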
